A study of Mus musculus with 6 samples.

Results

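The 70 genes described here encode the classical axon guidance cues and their receptors: 20 semaphorins with 9 plexins and 2 neuropilins, 3 Slits with 4 Robos, 4 netrins with 4 Unc5 receptors, Dcc and Neo1, and 8 ephrins with 14 Eph receptors. They were taken by symbol from the 21951 protein-coding genes of the GENCODE vM21 annotation (genome build mm10), with 35 ligands and 35 receptors. The measurement was CAGE, which sequences the 5′ ends of capped RNAs, on nuclear RNA of R08 mESCs (a mouse embryonic stem cell line) and of oli-neu, a line derived from mouse oligodendrocyte progenitor cells and called mOPC below, with 3 libraries each. R08 cells grew without feeders in medium with 1000 U/ml LIF and 15% serum, and oli-neu cells grew on poly-lysine in N2 medium with 340 ng/ml T3, 400 ng/ml thyroxine, 10 ng/ml bFGF and 1 ng/ml PDGF-BB, without any treatment that differed within a cell type. Each cell type is represented by 1 line. The value of a gene is the number of tags that begin within 500 bp of its annotated 5′ ends on its own strand, given in TPM (tags per 1000000 tags of the library). One RNA gives 1 tag whatever its length, so the values need no division by gene length.

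Guidance cues are secreted or membrane-bound proteins that steer growing axons and migrating cells by attraction or repulsion, and many of them act at cell contacts far outside the nervous system. Semaphorins signal through plexins, with neuropilins as co-receptors for most secreted members. Slits act through Robos, netrins through Dcc, neogenin and Unc5 proteins, and ephrins through Eph tyrosine kinases, where the ephrin-bearing cell can also respond. Oligodendrocyte progenitors migrate long distances through the developing brain and are known to respond to several of these cues.

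The libraries held between 16657021 and 40928704 tags, and 80.8% (mESC replicate 1) against 67% (mOPC replicate 3) of the tags lay in the windows of protein-coding genes. Tags carry no molecular identifiers, so intervals and bounds given below cover counting error only. The labels of the cell lines matched their markers: of 29 tested mESC markers 24 were higher in mESCs, with Pou5f1 at 1007 against 0, Nanog at 123 against 0 and Sox2 at 287 against 23.3 TPM. Of 38 mOPC markers 35 were higher in mOPCs, with Olig1 at 97.3, Olig2 at 425, Sox10 at 337 and Cspg4 at 576 against at most 0.81 in mESCs. Pdgfra stood at 5.51 in mESCs and 8.33 in mOPCs. Genes of other cell types also differed. The summed level of 10 markers of differentiated oligodendrocytes was 71 ± 1.49 in mESCs against 435 ± 13.9 in mOPCs. It was 146 ± 7.13 in mESCs against 344 ± 12.5 in mOPCs for 8 astrocyte markers. For 10 neuron markers it was 334 ± 13.9 in mESCs against 297 ± 20.8 in mOPCs. For 8 fibroblast markers it was 3.73 ± 0.218 in mESCs against 85.8 ± 1.78 in mOPCs, with Postn at 74.7 in mOPCs. For 8 microglia markers it was 0.518 ± 0.245 in mESCs against 2.93 ± 0.645 in mOPCs. For 6 endothelial markers it was 19.9 ± 0.98 in mESCs against 0.0386 ± 0.0472 in mOPCs. For 8 extraembryonic markers it was 53.4 ± 5.07 in mESCs against 0.036 ± 0.0367 in mOPCs. Their part in the results was not tested, and in bulk libraries fewer cells that express a gene cannot be told apart from less RNA per cell. Each cell type was also a library set of its own in the deposited tables, so cell type and library set cannot be told apart.

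Tags were deposited per base, so the most used position of each gene can be given, although it may be shifted by 1 base, as described below. The stretches below are shown because 1 position in each took at least 30% of the tags of the gene in a cell type, and because they include starts of genes that one of the cell types hardly used. They come from the RefSeq promoter table for GRCm38.p6, the sequence of mm10, which held 60 of the 70 genes. Each runs from 40 bases before to 10 bases after the most used position, which is the isolated capital; a TATAA motif is in capitals as well.
Slit2 (chr5:47983113-47983163, plus strand): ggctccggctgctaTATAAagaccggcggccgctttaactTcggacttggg
Epha4 (chr1:77515078-77515128, minus strand): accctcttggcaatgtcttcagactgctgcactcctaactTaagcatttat
Epha2 (chr4:141301202-141301252, plus strand): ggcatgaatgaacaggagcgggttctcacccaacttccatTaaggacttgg
Efnb2 (chr8:8661230-8661280, minus strand): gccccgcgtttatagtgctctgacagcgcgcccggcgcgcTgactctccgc
Unc5c (chr3:141465558-141465608, plus strand): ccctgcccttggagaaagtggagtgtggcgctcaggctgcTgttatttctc
Sema3g (chr14:31217819-31217869, plus strand): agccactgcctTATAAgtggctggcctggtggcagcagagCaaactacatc
Sema7a (chr9:57940071-57940121, plus strand): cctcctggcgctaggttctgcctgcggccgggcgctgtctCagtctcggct
Ephb3 (chr16:21204739-21204789, plus strand): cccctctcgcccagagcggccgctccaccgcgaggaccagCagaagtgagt
Plxna3 (chrX:74329025-74329075, plus strand): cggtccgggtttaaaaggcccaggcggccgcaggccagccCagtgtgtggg
The first 4 are the positions used in mESCs, where the capital took 54.6% of the Slit2 tags, 55.9% of the Epha4 tags, 34.6% of the Epha2 tags and 49.1% of the Efnb2 tags. In mOPCs the capital took 59.5% of the Unc5c tags and 34.1% of the Sema3g tags. Sema7a, Ephb3 and Plxna3 began at the same base in both cell types, with 68.7%, 53.5% and 67.9% of their tags there in mESCs and 61.5%, 62.5% and 69.2% in mOPCs.

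The motif TATAA was searched in the 40 bases before the most used position on both strands (TTATA on the reverse strand). In mESCs it was present in 2 of 29 guidance genes with such a stretch, against 3.37% of the stretches of all 6374 genes. In mOPCs it was present in 1 of 30 guidance genes, against 2.89% of 5809. The genes were Slit2 and Efnb2 in mESCs, the latter by its reverse strand, and Sema3g in mOPCs. The counted position lay 1 base before the nearest annotated 5′ end in 13 of 46 guidance genes with at least 100 tags in mESCs and in 14 of 47 in mOPCs, and exactly on it in 1 and 0. Over all genes with at least 100 tags the position 1 base before was met in 17.4% in mESCs and 17.5% in mOPCs, and the base after the counted position was A or G in 94.9% and 96.2% of the stretches. The positions and capitals above may thus mark the base before the first base of the RNA. The cause of the offset was not tested.

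For 34 guidance genes at least 100 tags were counted in both cell types, and 15 of them (44.1%) had the same most used position in both, against 59.7% of 10554 genes. In another 15 the positions were up to 100 bp apart. A pair of such promoters is shown from 20 bases before the first to 10 bases after the second position, both in capitals.
Efna1 (chr3:89279601-89279662, minus strand): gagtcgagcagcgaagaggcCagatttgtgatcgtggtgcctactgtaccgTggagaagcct
Sema4g (chr19:44989259-44989302, plus strand): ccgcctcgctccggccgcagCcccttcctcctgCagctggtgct
In both stretches the first capital is the mESC position and the second the mOPC position, 31 bp apart in Efna1 and 13 bp apart in Sema4g. The mOPC positions took 24.1% and 30.3% of the tags in mOPCs, and the mESC positions took 18.2% and 25% in mESCs. Width was taken in the joined 500 bp windows that held the most used position. The middle 80% of the tags there covered a median of 102 bp over 47 guidance genes in mOPCs. In mESCs the median was 63 bp over 46 guidance genes. Only 34 genes are in both sets, so the medians do not compare the same genes. Over all genes with at least 100 tags in the cell type the medians were 59 bp in mOPCs and 56 bp in mESCs.

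Guidance genes were transcribed in both cell types at different levels. Of the 70 genes 51 had a mean of at least 1 TPM in mESCs, 47 in mOPCs and 61 in at least 1 of the cell types. Summed over the 70 genes the 3 mESC libraries held 769 to 790.5 TPM and the mOPC libraries 2464 to 2493, a ratio of 3.17. Of the 63 genes with enough tags to be tested, 36 were higher in mOPCs (57.1%, against 43.1% of all 14137 genes tested) and 24 were higher in mESCs (38.1%, against 48.1%), by edgeR's quasi-likelihood test at a Benjamini-Hochberg adjusted p under 0.05 over all genes. Ntn1, Ntn5 and Sema3c were not called. Most genes of these cell types differed, so the share that differed is near that of all genes. The median log2 fold change, mOPC over mESC, was 1.19 over the 63 genes and -0.12 over all genes tested. Among the ligands 18 were higher in mOPCs, 12 in mESCs and 3 were not called, and among the receptors 18 were higher in mOPCs and 12 in mESCs. The 7 genes without a test (Slit1, Efna5, Epha3, Epha5, Epha6, Epha10 and Plxna4) had at most 0.720 TPM in any library. In 34 tested genes all mOPC libraries lay above all mESC libraries, against 42.7% of all genes tested, in 25 the reverse held, against 48.7%, and in 4 the groups overlapped. Tags shared with the window of another protein-coding gene made up 0% in every guidance gene.

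**Figure D1:**
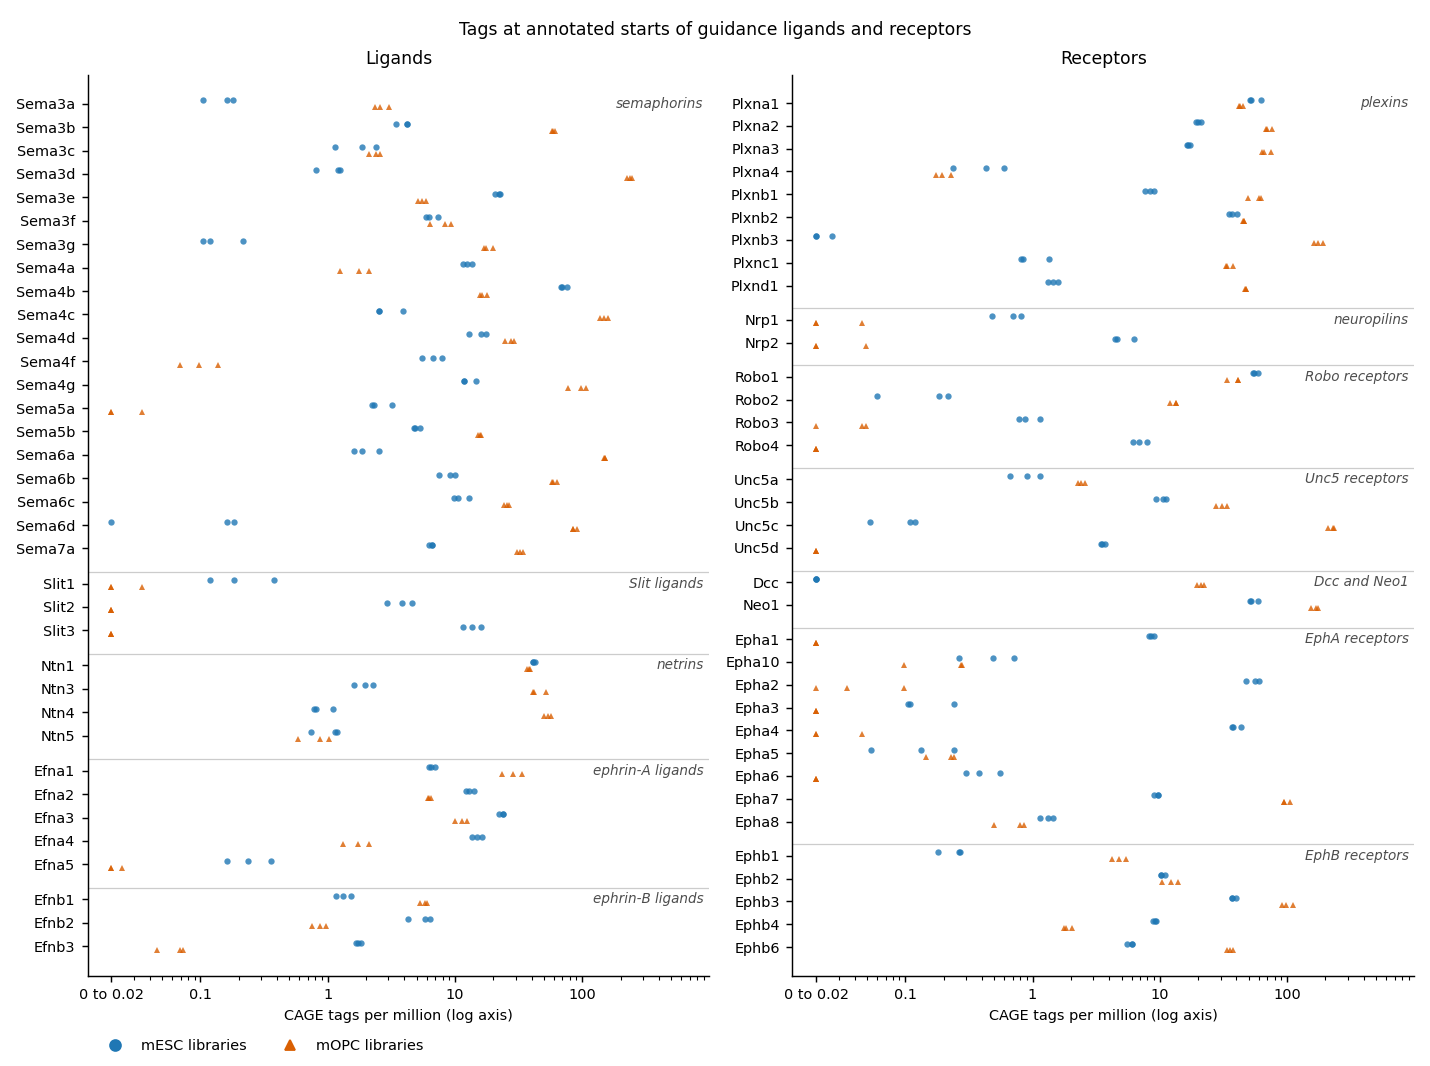
TPM at the annotated starts (log axis) of each of the 70 genes, ligands left and receptors right, 1 point per library; values up to 0.02, zeros included, are drawn at the left edge. Points of a cell type lie close together, and the cell types overlap in 4 of the 63 tested genes, with Unc5c, Plxnb3 and Dcc at or near 0 in mESCs and Slit3, Epha1 and Robo4 at 0 in mOPCs.

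Semaphorins, the largest family, had the highest summed level of the 12 families in both cell types, 194 ± 6.31 in mESCs against 991 ± 15 in mOPCs TPM (mean ± SD, n = 3), with 14 of 20 genes higher in mOPCs, 5 higher in mESCs and 1 not called. These sums are not divided by the number of genes in a family. The class 3 genes encode secreted proteins, and 5 of 7 were higher in mOPCs. Sema3d (chr5:12383385-12588948, plus strand) was the most transcribed of them, with 1.24, 1.2 and 0.814 TPM across mESC replicates and 247, 238 and 225 across mOPC replicates (log2 fold change 7.74 ± 0.13 SE, edgeR adjusted p = 1.27e-53). Every mOPC library was above 200 TPM and no mESC library reached 2. Sema3b, first known as a repellent of sympathetic axons, had 4.2, 4.2 and 3.42 TPM across mESC replicates and 58.6, 57.7 and 60.6 across mOPC replicates (log2 fold change 3.91 ± 0.11 SE, edgeR adjusted p = 1.52e-40). Sema3g had 0.106, 0.12 and 0.217 TPM across mESC replicates and 17, 17.5 and 19.9 across mOPC replicates (log2 fold change 7.03 ± 0.24 SE, edgeR adjusted p = 5.44e-37), from the start shown above with its TATAA motif. In these 3 genes every mOPC library was far above every mESC library. Sema3e (chr5:14025276-14256689, plus strand), whose protein binds plexin D1 without a neuropilin, went the other way, with 20.7, 22 and 22.4 TPM across mESC replicates and 5.52, 5.93 and 5.16 across mOPC replicates (log2 fold change -1.95 ± 0.12 SE, edgeR adjusted p = 1.03e-23). Sema3f, a ligand for neuropilin 2, had 7.31, 5.88 and 6.3 TPM across mESC replicates and 6.34, 8.39 and 9.31 across mOPC replicates, and the groups overlapped (log2 fold change 0.33 ± 0.14 SE, edgeR adjusted p = 0.0261). Its call was lost without mESC replicate 2, mESC replicate 3, mOPC replicate 2 or mOPC replicate 3, with adjusted p between 0.0548 and 0.275. It was also lost with DESeq2 or its size factors, windows of 100 bp and shared tags left out (adjusted p between 0.0608 and 0.170). Sema3a and Sema3c stayed under 5 TPM, Sema3a with 0.149 ± 0.039 in mESCs against 2.67 ± 0.347 in mOPCs (log2 fold change 4.27 ± 0.33 SE) and Sema3c with 1.79 ± 0.625 in mESCs against 2.37 ± 0.253 in mOPCs (adjusted p = 0.0646; 0.0342 without mESC replicate 3).

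The class 4 genes encode transmembrane proteins, and they divided evenly, with 3 of 6 higher in each cell type. Sema4c (chr1:36548639-36558349, minus strand), a ligand of plexin B2, had 3.91, 2.52 and 2.55 TPM across mESC replicates and 149, 138 and 158 across mOPC replicates (log2 fold change 5.57 ± 0.12 SE, edgeR adjusted p = 1.08e-41). Sema4g, a further ligand of plexin B2, had 11.7, 11.8 and 14.8 TPM across mESC replicates and 107, 98.7 and 77.6 across mOPC replicates (log2 fold change 2.91 ± 0.10 SE, edgeR adjusted p = 4.67e-32). Sema4d, the ligand of plexin B1 that is also known as CD100, had 12.9, 16 and 17.4 TPM across mESC replicates and 24.8, 27.5 and 28.9 across mOPC replicates (log2 fold change 0.86 ± 0.11 SE, edgeR adjusted p = 1.18e-10). All mOPC libraries lay above all mESC libraries in these 3 genes, with a small distance for Sema4d. Sema4b (chr7:80186841-80226527, plus strand) was the most used semaphorin gene of mESCs, with 76.4, 70.001 and 68.4 TPM across mESC replicates and 15.7, 16.3 and 18 across mOPC replicates (log2 fold change -2.07 ± 0.09 SE, edgeR adjusted p = 4.10e-30). Sema4a, known from immune cells and retina, had 12.5, 13.5 and 11.6 TPM across mESC replicates and 1.78, 1.25 and 2.1 across mOPC replicates (log2 fold change -2.82 ± 0.16 SE, edgeR adjusted p = 2.17e-25). Sema4f had 6.68, 5.52 and 7.98 TPM across mESC replicates and 0.137, 0.0694 and 0.0977 across mOPC replicates (log2 fold change -6.01 ± 0.29 SE, edgeR adjusted p = 6.20e-29), with 9 tags in all mOPC libraries together. In these genes every mESC library was several times above every mOPC library.

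All 4 class 6 genes, which encode transmembrane semaphorins that bind A-type plexins, were higher in mOPCs. Sema6a had 1.85, 1.62 and 2.55 TPM across mESC replicates and 149.5, 152 and 151 across mOPC replicates (log2 fold change 6.27 ± 0.12 SE, edgeR adjusted p = 6.55e-50). Sema6d (chr2:124089969-124667770, plus strand), a ligand of plexin A1, had 0.185, 0 and 0.163 TPM across mESC replicates and 84.1, 91 and 84.5 across mOPC replicates (log2 fold change 9.28 ± 0.19 SE, edgeR adjusted p = 4.66e-49). For these genes the mESC level rested on few tags, 144 for Sema6a and 10 for Sema6d in all 3 libraries. Without mESC replicate 1 the log2 fold change of Sema6d was 9.96. Sema6b had 9.18, 7.5 and 9.93 TPM across mESC replicates and 63.4, 58.9 and 57.9 across mOPC replicates (log2 fold change 2.77 ± 0.10 SE, edgeR adjusted p = 9.82e-35) and Sema6c had 13, 9.85 and 10.6 TPM across mESC replicates and 26.7, 25.6 and 24.1 across mOPC replicates (log2 fold change 1.19 ± 0.11 SE, edgeR adjusted p = 9.94e-16). Sema7a, the GPI-anchored semaphorin that binds plexin C1 and integrins, had 6.62, 6.3 and 6.62 TPM across mESC replicates and 30.6, 32.5 and 34.4 across mOPC replicates (log2 fold change 2.34 ± 0.11 SE, edgeR adjusted p = 7.28e-29). Class 5 proteins carry thrombospondin repeats, and the genes moved in opposite directions: Sema5b had 5.28, 4.8 and 4.83 TPM across mESC replicates and 16, 15.3 and 15.9 across mOPC replicates (log2 fold change 1.67 ± 0.13 SE, edgeR adjusted p = 3.97e-19). Sema5a had a mean of 2.57 ± 0.546 in mESCs against 0.0116 ± 0.02002 in mOPCs, which is 183 tags in mESCs and 1 in mOPCs, a ratio of mESC over mOPC of 229.9 (95% exact interval 40.8 to 9131).

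Plexins, the transmembrane receptors of semaphorins, were higher in mOPCs in 7 of 8 tested genes, and their summed level was 141 ± 4.13 in mESCs against 543 ± 21.4 in mOPCs TPM. Plxnb3 (chrX:73757090-73772514, plus strand), a receptor of Sema5A, had 0.0264, 0 and 0 TPM across mESC replicates and 173, 163 and 191 across mOPC replicates. This was 1 tag in mESCs and 16304 in mOPCs, a ratio of 12975 (95% exact interval 2328 to 5.13e+05) (edgeR adjusted p = 2.61e-53). Plxnb1, the receptor of Sema4D, had 9.03, 7.62 and 8.36 TPM across mESC replicates and 61.8, 49.1 and 59.9 across mOPC replicates (log2 fold change 2.78 ± 0.11 SE, edgeR adjusted p = 1.17e-33). Plxnb2 had 35, 36.9 and 40.1 TPM across mESC replicates and 45.7, 45.3 and 45.8 across mOPC replicates (log2 fold change 0.31 ± 0.09 SE, edgeR adjusted p = 9.61e-04). The difference in Plxnb2 was small, and the call of Plxnb2 was lost when all tags inside the gene were counted (log2 fold change 0.03, adjusted p = 0.696).

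Plxnc1 (chr10:94790866-94944835, minus strand), the receptor of Sema7A, had 0.818, 0.84 and 1.36 TPM across mESC replicates and 33.8, 32.9 and 37.3 across mOPC replicates (log2 fold change 5.18 ± 0.16 SE, edgeR adjusted p = 1.13e-39), and Sema7a was higher in the same cells. Plxnd1, the receptor of Sema3E, had 1.45, 1.32 and 1.57 TPM across mESC replicates and 46.8, 47.8 and 47.7 across mOPC replicates (log2 fold change 5.05 ± 0.13 SE, edgeR adjusted p = 7.85e-43), while Sema3e was higher in mESCs. The A-type plexins carry the signal of secreted semaphorins bound to neuropilins and of class 6 semaphorins. Plxna2 had 19.3, 21 and 20.02 TPM across mESC replicates and 69.3, 75.6 and 68.2 across mOPC replicates (log2 fold change 1.84 ± 0.09 SE, edgeR adjusted p = 4.44e-28). Plxna3 had 16.6, 17.1 and 16.2 TPM across mESC replicates and 74.2, 63.4 and 66.3 across mOPC replicates (log2 fold change 2.05 ± 0.09 SE, edgeR adjusted p = 8.29e-30). Plxna1 was the tested plexin called as higher in mESCs, with 62.5, 51.4 and 51.9 TPM across mESC replicates and 42.4, 42.1 and 45.1 across mOPC replicates (log2 fold change -0.34 ± 0.09 SE, edgeR adjusted p = 4.52e-04). With all tags inside the gene counted its log2 fold change was 0.019 (adjusted p = 0.849). Plxna4 was not tested, with a mean of 0.424 ± 0.182 in mESCs against 0.199 ± 0.0275 in mOPCs.

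The neuropilins, co-receptors of class 3 semaphorins and of VEGF, were barely used from their annotated starts in mOPCs. Nrp2 (chr1:62703285-62818695, plus strand) had 4.59, 4.44 and 6.3 TPM across mESC replicates and 0, 0 and 0.0489 across mOPC replicates, a ratio of mESC over mOPC of 229 (95% exact interval 62.9 to 1896) (edgeR adjusted p = 9.48e-27). Nrp1 had a mean of 0.668 ± 0.172 in mESCs against 0.0152 ± 0.0263 in mOPCs, which is 52 tags against 1. The Nrp2 windows did not describe the whole gene. In an intron of Nrp2, 14727 bp downstream of the nearest annotated 5′ end, mOPC tags began at chr1:62718321-62718637, with 38.4, 41.7 and 37.1 TPM in the mOPC libraries and 0 in all 3 mESC libraries. In mESCs tags began further downstream, at chr1:62738286-62738531 in an exon (7.55, 9.01 and 7.92) and at chr1:62768913-62769054 in an intron (7.31, 9.43 and 9.99). With all tags inside the gene counted Nrp2 did not pass the test (log2 fold change -0.08, edgeR adjusted p = 0.341). The annotated start was thus near silent in mOPCs while an intronic position gave more tags there than the annotated start gave in mESCs. These positions were picked after their values were seen, and whether the RNAs from them encode Nrp2 was not tested.

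**Figure D2:**
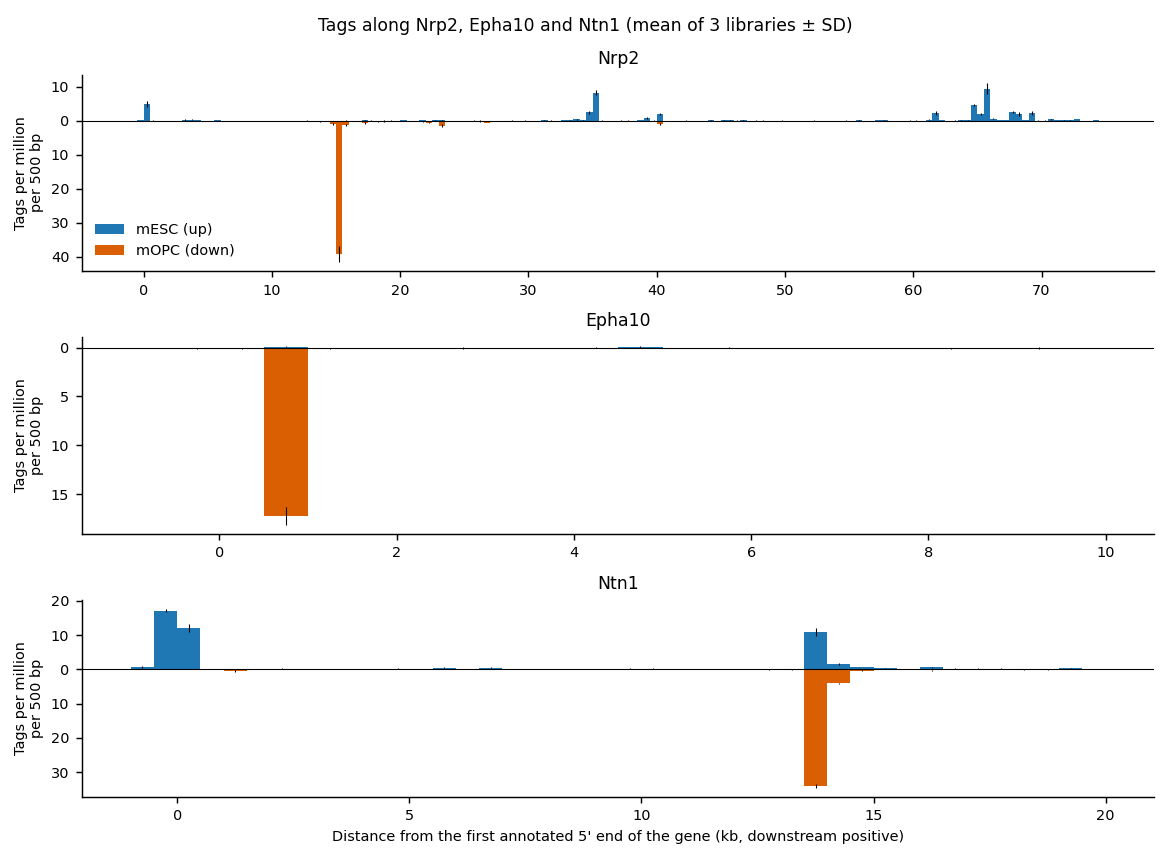
Mean TPM (± SD, n = 3) in 500 bp steps along Nrp2, Epha10 and Ntn1, by distance from the first annotated 5′ end, mESC upward and mOPC downward. In Nrp2 the tall mOPC bar stands 14727 bp past the nearest annotated 5′ end; in Epha10 the mOPC tags stand just outside the counted window; in Ntn1 both cell types used the second region and mESCs also used the first.

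The Slit genes, which encode large secreted repellents of commissural axons, had start tags in mESCs and almost none in mOPCs. Slit3 (chr11:35121224-35708507, plus strand) had 13.5, 11.6 and 16 TPM across mESC replicates and 0 in all 3 mOPC libraries, at least 419-fold higher in mESCs when the 0 tags of mOPCs are set to 3 tags over the pooled libraries (edgeR adjusted p = 1.82e-35). Slit2 had a mean of 3.8 ± 0.837 in mESCs against 0 ± 0 in mOPCs, at least 117-fold higher in mESCs (edgeR adjusted p = 1.40e-24), and its start is the first stretch above. Slit1 was not tested, with 16 tags in mESCs and 1 in mOPCs. With all tags inside the genes counted the ratio of the summed Slit tags on the log2 scale was -2.83, against -10.58 in the windows.

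The Robo receptors did not move together. Robo1 (chr16:72308306-73046095, plus strand), the main Slit receptor of many axons, was used in both cell types, with 54.8, 58.8 and 54.2 TPM across mESC replicates and 41.2, 41 and 33.5 across mOPC replicates (log2 fold change -0.52 ± 0.09 SE, edgeR adjusted p = 2.58e-07). All mESC libraries were above all mOPC libraries, but the difference was small and was lost with all tags inside the gene (-0.16, adjusted p = 0.0509). Robo2, which acts beside Robo1 as a Slit receptor, had 0.185, 0.06003 and 0.217 TPM across mESC replicates and 11.9, 13.5 and 13.3 across mOPC replicates (log2 fold change 6.29 ± 0.24 SE, edgeR adjusted p = 4.43e-34). Robo4, the receptor of endothelial cells, had 7.87, 6.84 and 6.19 TPM across mESC replicates and 0 in all 3 mOPC libraries, at least 220.3-fold higher in mESCs (edgeR adjusted p = 1.96e-30). The endothelial marker list moved with it, with 4 of 6 markers tested and all 4 higher in mESCs, Tek at 10.3 and Flt1 at 6.13 TPM in mESCs and 0 in mOPCs, Pecam1 at 1.43 and Cdh5 at 0.231 in mESCs, and the part of such cells in the Robo4 level was not tested. Robo3, the divergent Robo of commissural neurons, had a mean of 0.93 ± 0.187 in mESCs against 0.0315 ± 0.0273 in mOPCs with 67 tags against 3, and its call was lost with windows of 1000 bp (-0.13, adjusted p = 0.644) and with all tags inside the gene (-0.021, adjusted p = 0.942). At the annotated starts mOPCs thus held Robo1 and Robo2 tags and none of Slit2 or Slit3. In mESCs the tags were mainly those of Slit2, Slit3, Robo1 and Robo4.

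Netrins attract or repel axons depending on the receptor. Ntn4 (chr10:93640681-93747207, plus strand), a netrin of basement membranes related to laminin beta chains, had 1.11, 0.78 and 0.814 TPM across mESC replicates and 53.6, 50.003 and 56.7 across mOPC replicates (log2 fold change 5.83 ± 0.15 SE, edgeR adjusted p = 2.86e-44). Ntn3 had 1.61, 2.28 and 1.95 TPM across mESC replicates and 40.9, 41.9 and 51.8 across mOPC replicates (log2 fold change 4.61 ± 0.14 SE, edgeR adjusted p = 1.24e-35). Both were at or under 2.28 TPM in every mESC library. Ntn1 (chr11:68209364-68400823, minus strand), the founding attractant of commissural axons, had 40.9, 41.2 and 42.9 TPM across mESC replicates and 38.2, 37.2 and 38.6 across mOPC replicates and was not called (log2 fold change -0.11 ± 0.09 SE, edgeR adjusted p = 0.23), although every mESC library lay above every mOPC library. It was called as higher in mESCs with DESeq2 (-0.20, adjusted p = 0.0240) and as higher in mOPCs with all tags inside the gene (0.30, adjusted p = 0.000691). The near equal totals came from different start regions, as described below. Ntn5 was weak, with 1.02 ± 0.249 in mESCs against 0.827 ± 0.221 in mOPCs (adjusted p = 0.596). With windows of 100 bp Ntn5 was called as higher in mOPCs (log2 fold change 2.74, edgeR adjusted p = 4.98e-06).

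Of the netrin receptors some were found in mOPCs almost alone. Dcc (chr18:71253634-72351069, minus strand), the receptor for attraction to netrin 1, had 0 in all 3 mESC libraries and 19.7, 22.2 and 20.9 TPM across mOPC replicates, at least 511-fold higher in mOPCs with 0 tags in mESCs (edgeR adjusted p = 1.37e-38). Neo1, which encodes neogenin, the second receptor of this type that also binds repulsive guidance molecules, had 51.3, 52.5 and 59.3 TPM across mESC replicates and 153, 169.8 and 174 across mOPC replicates (log2 fold change 1.63 ± 0.09 SE, edgeR adjusted p = 8.40e-27). Unc5c (chr3:141465216-141834924, plus strand), a receptor for repulsion from netrin 1, had 0.0528, 0.12 and 0.109 TPM across mESC replicates and 235, 229 and 211 across mOPC replicates (log2 fold change 11.36 ± 0.18 SE, edgeR adjusted p = 4.14e-55), which is 6 tags in mESCs and 20389 in mOPCs. Leaving out 1 library gave log2 fold changes of Unc5c from 10.94 to 11.58, a spread beyond the SE. Dcc and Unc5c were thus near absent from the mESC start tags, while Neo1 was used in both cell types. Unc5b had 11.1, 9.37 and 10.5 TPM across mESC replicates and 33.6, 27.6 and 31.1 across mOPC replicates (log2 fold change 1.58 ± 0.11 SE, edgeR adjusted p = 2.36e-21). Unc5a had a mean of 0.89999 ± 0.24 in mESCs against 2.43 ± 0.162 in mOPCs (log2 fold change 1.54 ± 0.23 SE), a call lost with all tags inside the gene (0.10, adjusted p = 0.612). Unc5d was the one higher in mESCs, with 258 tags there and 0 in mOPCs, a mean of 3.57 TPM and at least 108-fold higher (edgeR adjusted p = 1.23e-24). Summed over the 4 genes the Unc5 level was 14.9 ± 0.684 in mESCs against 258 ± 13.2 in mOPCs, most of it Unc5c in mOPCs.

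**Figure D3:**
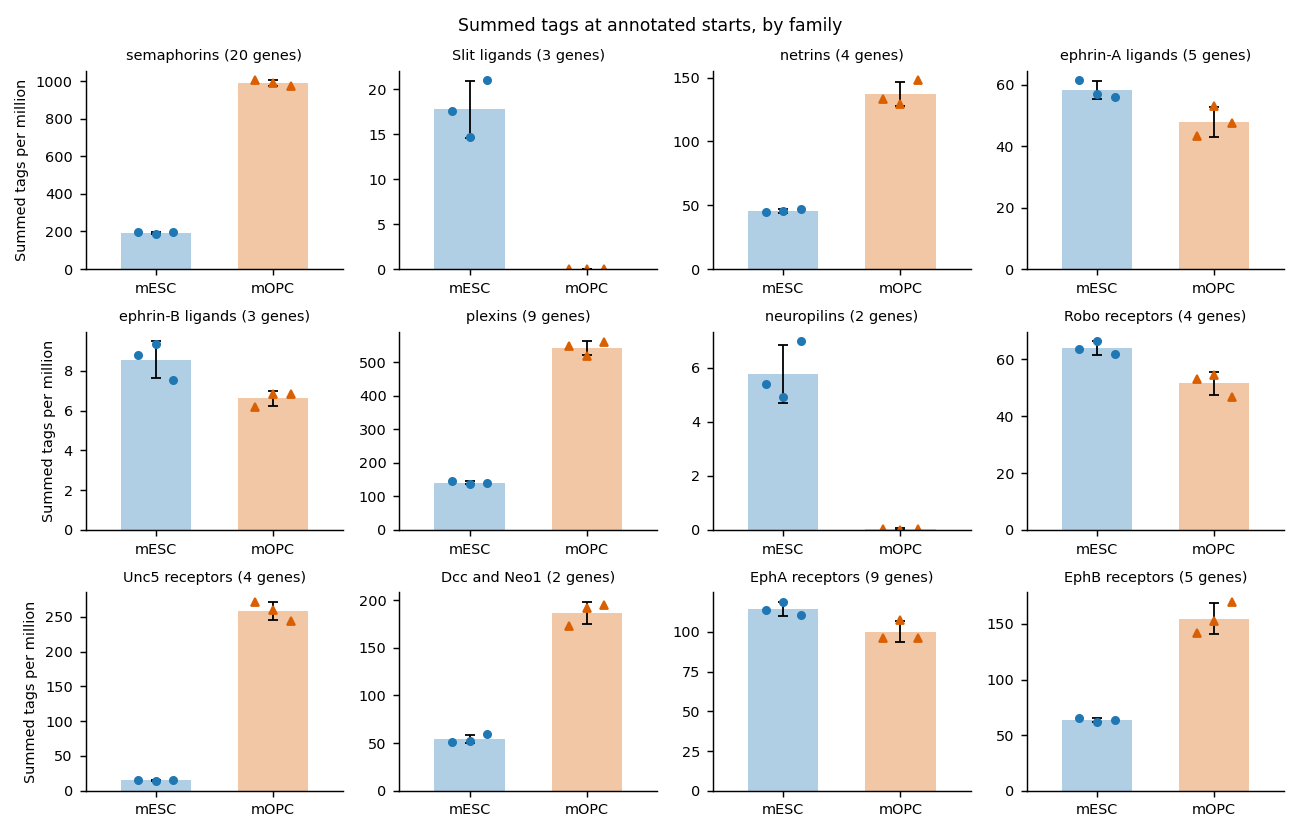
Summed TPM at annotated starts for each of the 12 families in each library (points), with the mean (bar) and SD (n = 3, error bars), axes starting at 0. Semaphorins, plexins, netrins, Unc5 receptors, Dcc with Neo1 and EphB receptors were higher in mOPCs, Slits and neuropilins were near 0 in mOPCs, and the ephrin, EphA and Robo sums differed by under 2-fold.

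Ephrins are membrane-bound ligands, held by a lipid anchor in class A and by a transmembrane segment in class B. Of the tested class A genes 3 of 4 were higher in mESCs. Efna3 had 23.8, 23.7 and 22.1 TPM across mESC replicates and 12.4, 11.4 and 9.99 across mOPC replicates (log2 fold change -1.04 ± 0.11 SE, edgeR adjusted p = 1.08e-13). Efna4 had 16.4, 13.7 and 15 TPM across mESC replicates and 1.32, 1.73 and 2.13 across mOPC replicates (log2 fold change -3.05 ± 0.15 SE, edgeR adjusted p = 5.39e-28). Efna2 had 14.1, 13 and 12.3 TPM across mESC replicates and 6.16, 6.28 and 6.55 across mOPC replicates (log2 fold change -1.03 ± 0.12 SE, edgeR adjusted p = 2.16e-11). The size of the Efna2 difference depended on the window, with a log2 fold change of -4.02 in windows of 100 bp (edgeR adjusted p = 2.23e-22). Efna1 (chr3:89271733-89281142, minus strand) was the class A gene with more tags in mOPCs, with 6.92, 6.24 and 6.46 TPM across mESC replicates and 23.4, 33.6 and 28.8 across mOPC replicates (log2 fold change 2.14 ± 0.12 SE, edgeR adjusted p = 9.84e-24), and its start moved by 31 bp in the stretch shown above. The groups did not overlap in any of these 4 genes, and the sums nearly balanced, with 58.2 ± 2.88 in mESCs against 47.9 ± 4.95 in mOPCs TPM. Efnb2, the class B ligand of EphB4 known from arteries, had 5.83, 6.36 and 4.29 TPM across mESC replicates and 0.867, 0.971 and 0.757 across mOPC replicates (log2 fold change -2.66 ± 0.20 SE, edgeR adjusted p = 2.20e-19). Efnb1, on the X chromosome, had 1.16, 1.32 and 1.52 TPM across mESC replicates and 5.29, 5.79 and 6.01 across mOPC replicates (log2 fold change 2.16 ± 0.18 SE, edgeR adjusted p = 4.57e-17), so the strongest class B gene was a different one in each cell type. Efnb3 had a mean of 1.75 ± 0.0706 in mESCs against 0.0628 ± 0.015 in mOPCs (log2 fold change -4.63 ± 0.40 SE).

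The EphA receptors differed in both directions. Epha2 (chr4:141301240-141329384, plus strand), a receptor of epithelia, had 55.7, 60.3 and 47.2 TPM across mESC replicates and 0, 0.0347 and 0.0977 across mOPC replicates (log2 fold change -9.82 ± 0.22 SE, edgeR adjusted p = 1.37e-44), with 5 tags in mOPCs. Without mOPC replicate 3, which held 4 of them, its log2 fold change was -11.10, and with all tags inside the gene it was -8.49. Epha4 (chr1:77367185-77515088, minus strand), which binds ephrins of both classes, had 37.7, 37 and 43.5 TPM across mESC replicates and 0.0456, 0 and 0 across mOPC replicates, 2846 tags against 1, a ratio of mESC over mOPC of 3576 (95% exact interval 641 to 1.41e+05) (edgeR adjusted p = 3.40e-45). Epha1 had 8.29, 8.95 and 8.47 TPM across mESC replicates and 0 in all 3 mOPC libraries, at least 259-fold higher in mESCs (edgeR adjusted p = 1.92e-32). Higher in mOPCs was Epha7 (chr4:28813131-28967499, plus strand), which had 9.74, 9.67 and 9.06 TPM across mESC replicates and 94.9, 106 and 95.2 across mOPC replicates (log2 fold change 3.40 ± 0.10 SE, edgeR adjusted p = 1.75e-40). The sum over the 9 genes was 114 ± 4.33 in mESCs against 99.98 ± 6.61 in mOPCs TPM, so that the family total hid 3 genes that were near 0 in mOPCs and 1, Epha7, that was 10.3 times higher there. Epha8 stayed low, with 1.3 ± 0.152 in mESCs against 0.718 ± 0.19 in mOPCs (log2 fold change -0.77 ± 0.26 SE).

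Epha10, which encodes an Eph receptor without kinase activity, was not tested because its windows held 31 mESC and 18 mOPC tags. The annotated 5′ end lies 892 bp from the position that mOPCs used, at chr4:124881738-124881857 in an exon. There the mOPC libraries held 15.2, 15.6 and 16.8 TPM and the mESC libraries 0.132, 0.06003 and 0.109. RefSeq places a start of Epha10 6 bp from that position. Windows of 1000 bp, which take in this position, turned the log2 ratio of the EphA sum from -0.19 to 0.052. Epha3, Epha5 and Epha6 had at most 33 tags in the 3 libraries of a cell type.

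The EphB receptors were mostly higher in mOPCs, 4 of 5, with a sum of 63.7 ± 1.86 in mESCs against 155 ± 14.1 in mOPCs. Ephb3 (chr16:21204755-21223305, plus strand), which positions cells in the intestine and guides commissural axons, had 39.9, 36.9 and 37.2 TPM across mESC replicates and 91.8, 97.8 and 111 across mOPC replicates (log2 fold change 1.42 ± 0.09 SE, edgeR adjusted p = 9.48e-23), from the same base in both cell types as shown above. Ephb6, whose kinase domain is inactive, had 5.99, 5.52 and 6.08 TPM across mESC replicates and 33.8, 35.6 and 37.6 across mOPC replicates (log2 fold change 2.62 ± 0.11 SE, edgeR adjusted p = 2.16e-31). Ephb2 had 10.2, 10.2 and 11 TPM across mESC replicates and 10.4, 12.3 and 13.9 across mOPC replicates, the groups overlapped (log2 fold change 0.26 ± 0.12 SE, edgeR adjusted p = 0.0428), and the call was lost without any 1 library other than mOPC replicate 1 (adjusted p between 0.0516 and 0.340). It was also lost with a replicate block (adjusted p = 0.0653), library totals, DESeq2 or its size factors, no filter, windows of 100 bp and shared tags left out (adjusted p between 0.0604 and 0.238). Ephb4, the receptor of ephrin B2 known from veins, had 9.26, 9.19 and 8.85 TPM across mESC replicates and 1.78, 2.05 and 1.83 across mOPC replicates (log2 fold change -2.24 ± 0.15 SE, edgeR adjusted p = 3.58e-21), and its ligand gene Efnb2 was also higher in mESCs. Ephb1 had a mean of 0.238 ± 0.0507 in mESCs against 4.8 ± 0.567 in mOPCs (log2 fold change 4.30 ± 0.27 SE). Thus Ephb3 and Ephb6 carried the EphB difference, and Ephb4 alone went the other way.

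**Figure D4:**
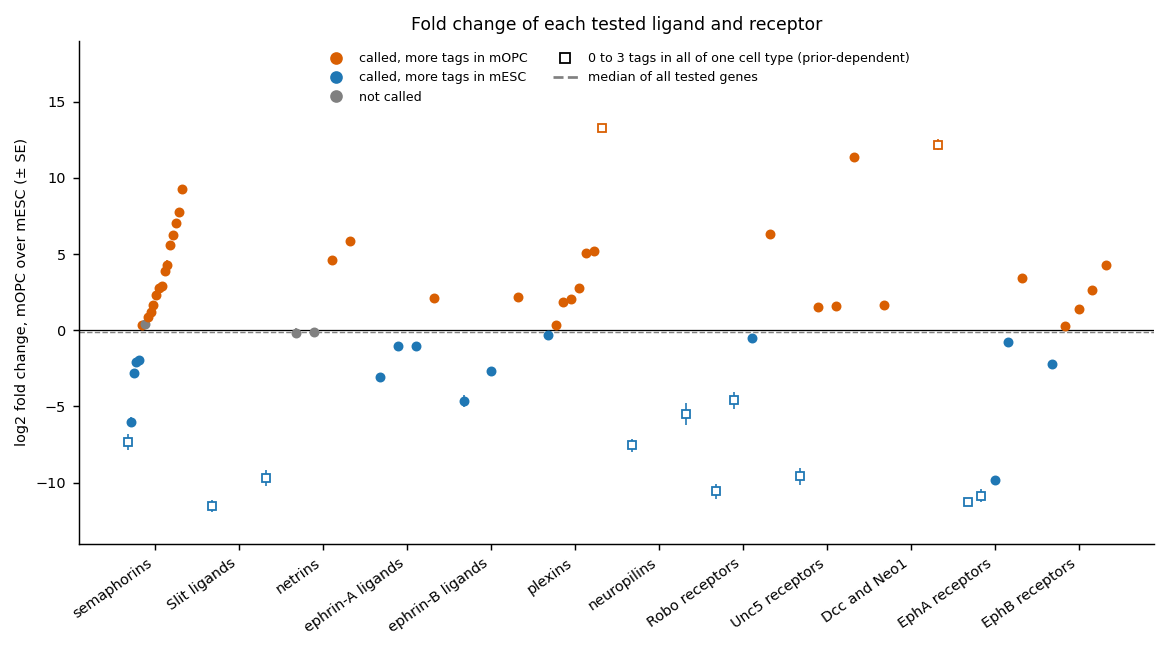
Log2 fold change (mOPC over mESC, ± SE) of each of the 63 tested genes by family, coloured by call. The SE was derived from the F statistic and understates the error where a cell type had few tags. Open squares have 0 to 3 tags in one cell type, so their height depends on the prior count of the fit and is no estimate of size; the dashed line is the median of all genes tested, -0.12.

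Within single genes the cell types also chose among start regions, which are the 500 bp windows of 1 gene joined where they meet. Of 14 guidance genes with at least 2 regions that could be tested, 10 changed their relative use (edgeR diffSpliceDGE, Simes p per gene, adjusted over all genes), against 69.6% of 3180 genes. The share that changed is thus near that of all genes. Ntn1 was the clearest. Its first region (chr11:68400323-68401323), the start of transcript Ntn1-202, held 27.6, 29.9 and 30.1 TPM in the mESC libraries and 0 in all 3 mOPC libraries. The second region (chr11:68386326-68387512), the start of Ntn1-201, held 13.3, 11.3 and 12.8 in mESCs and 38.2, 37.2 and 38.6 in mOPCs. The first region made up 67.5, 72.6 and 70.1% of the Ntn1 tags in mESCs (adjusted p = 3.72e-44), so the similar totals of Ntn1 came from regions of which one had no tag in mOPCs. Sema4b showed the same kind of pattern: its first region (chr7:80186341-80187378) held 22.8, 22.6 and 21.4% of its tags in mESCs, against 0% in mOPCs (adjusted p = 1.27e-28), and the second (chr7:80197941-80199036) held the rest. The first region of Efna1 (chr3:89280642-89281642) took 21.4, 25 and 27.7% in mESCs and 0, 0.619 and 0.17% in mOPCs (adjusted p = 2.91e-22).

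Regions used mainly in mOPCs were found in Plxnc1 and Sema4d, and regions with a larger share in mESCs in Sema3b and Sema4g. The fifth region of Plxnc1 (chr10:94829046-94830046) took 27, 22.8 and 24.4% of its tags in mOPCs, against 0% in mESCs, where the gene had 70 tags in all (adjusted p = 2.64e-06). The second region of Sema4d (chr13:51776611-51777611) took 3.31, 5.93 and 3.55% in mOPCs and 0% in mESCs (adjusted p = 8.01e-10). In Sema3b the third region (chr9:107604769-107606021) took 35.2, 28.6 and 57.1% in mESCs and 0.467, 0.661 and 0.645% in mOPCs (adjusted p = 3.90e-29), and the first region (chr9:107608693-107609729) took 55.3, 65.7 and 42.9% and 92, 90.9 and 91.9%. In Sema4g the second region (chr19:44991636-44992636) took 4.49, 7.11 and 7.72% in mESCs and 0.428, 0.387 and 0.598% in mOPCs (adjusted p = 1.31e-14).

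The other 3 called genes changed little or rested on few tags. Ephb3 kept its first region as the main one, and its second (chr16:21210024-21211595) took 0.991, 0.813 and 1.02% in mESCs and 2.19, 2.09 and 1.78% in mOPCs (adjusted p = 0.00201). In Sema4a the third region (chr3:88454342-88456936) took 21.7, 18.7 and 19.6% in mESCs and 0, 5.56 and 5.81% in mOPCs (adjusted p = 0.0149). In Sema6d, with 10 tags in mESCs, the third region (chr2:124609606-124611101) took 7.76, 8.08 and 9.13% in mOPCs (adjusted p = 0.0484). In mESC replicates 1 and 3 it took 42.9% and 33.3%, and mESC replicate 2 had no Sema6d tag. Epha7, Plxnd1, Neo1 and Sema6a did not pass this test, and in each of them 1 region held over 95% of the tags in every library.

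**Figure D5:**
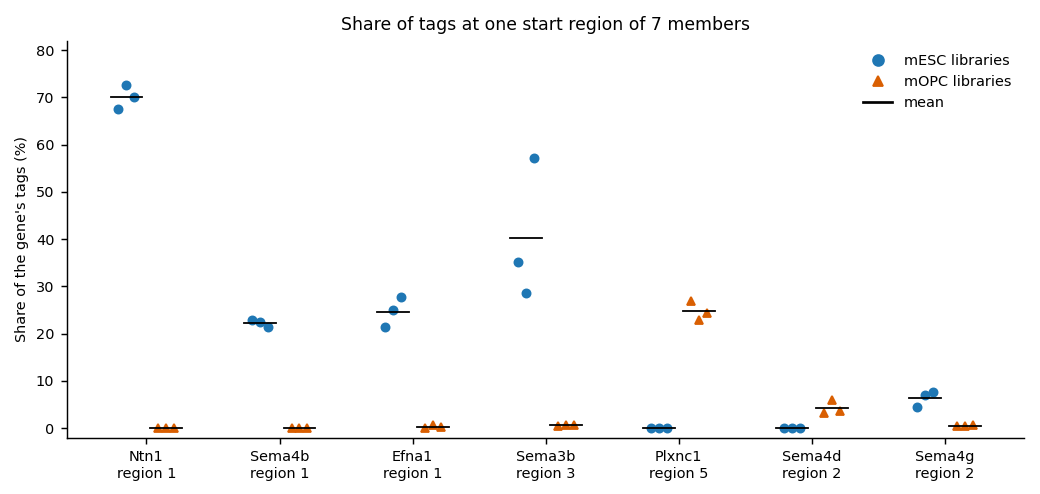
Share of a gene's start tags (%) at the named region of 7 genes, 1 point per library with the mean as a line. The first regions of Ntn1 and Sema4b are at 0% in all 3 mOPC libraries, and the Plxnc1 and Sema4d regions are at 0% in all 3 mESC libraries.

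Genes that work beside these cues were taken as 2 further lists. Among 24 further ligands and co-receptors 17 were higher in mOPCs, 4 in mESCs and 2 were not called, with 1 not tested, against 43.1% and 48.1% of all genes tested that were higher in mOPCs and in mESCs, and the summed level was 284 ± 6.81 in mESCs against 1968 ± 44 in mOPCs TPM. Cspg4, the NG2 proteoglycan of oligodendrocyte progenitors, had 0.475, 0.84 and 0.814 TPM across mESC replicates and 609, 549 and 571 across mOPC replicates (log2 fold change 9.80 ± 0.15 SE, edgeR adjusted p = 6.53e-56). The adhesion molecules Chl1 and Dscam, the latter also a netrin receptor, had 0.0792, 0.18 and 0.0543 TPM across mESC replicates and 44.4, 43.2 and 36.3 across mOPC replicates (log2 fold change 8.70 ± 0.22 SE, edgeR adjusted p = 1.70e-44) and 1.45, 1.5 and 1.52 TPM across mESC replicates and 257, 251 and 278 across mOPC replicates (log2 fold change 7.48 ± 0.13 SE, edgeR adjusted p = 1.30e-53). In each of the 3 genes the mESC libraries were under 2 TPM. Gpc3, a glypican, had 34.4, 37.6 and 40.8 TPM across mESC replicates and 0 in all 3 mOPC libraries, at least 1122-fold higher in mESCs (edgeR adjusted p = 4.20e-44), and Cntn2, an axonal adhesion molecule, had 6.41, 5.28 and 5.43 TPM across mESC replicates and 0 in all 3 mOPC libraries, at least 181-fold higher (edgeR adjusted p = 8.50e-29).

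Among 57 genes of intracellular signalling 35 were higher in mOPCs, 19 in mESCs and 3 were not called (43.1% and 48.1% of all genes tested were higher in mOPCs and in mESCs), and the summed level was 4252 ± 97.5 in mESCs against 4682 ± 17.7 in mOPCs TPM. Their median log2 fold change was 0.80, that of the further ligands and co-receptors 1.82, and that of all genes -0.12. Dpysl5, a member of the collapsin response mediator family downstream of semaphorins, had 12.6, 12.6 and 12.7 TPM across mESC replicates and 0, 0 and 0.0244 across mOPC replicates, 922 tags against 1, a ratio of mESC over mOPC of 1159 (95% exact interval 207 to 45808) (edgeR adjusted p = 1.65e-36). The sums of the 2 cell types lay closer together for these signalling genes than for the ligands and co-receptors.

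Tags also began inside guidance genes away from any annotated 5′ end. In all, 52 clusters with at least 1 TPM in every library of a cell type lay in 21 of the 70 genes, 43 in introns and 9 in exons, 26 with the higher mean in mESCs and 26 in mOPCs. Clusters were not counted in other genes, so whether 21 of 70 differs from the share of all genes was not tested. A cluster in an intron of Plxnb2 (chr15:89173938-89174008) lay 18 bp from a RefSeq start and had 2.19, 1.86 and 2.55 TPM in mESCs and 0.0456, 0 and 0 in mOPCs. A cluster in Ntn3 lies at a start of the gene Tbc1d24.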

How the data were processed

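CAGE libraries were made from nuclear RNA, 3 from R08 mESCs and 3 from oli-neu mOPCs. The deposited values are counts: how many tags of a library begin at each stranded base, without normalization. According to the methods of the study, the authors split reads by barcode, removed linkers and reads with ambiguous bases, mapped them to mm10 and kept those with a single place; the submitters' processing notes name CASAVA 1.8 and BWA 0.5.9, while the methods name other aligners, so the aligner of these files is uncertain. Unique alignment can lower the counts of genes with near-identical copies. Replicates are cell batches of different passage per the study's methods, and the labels do not say more; p-values measure the spread between these libraries. No pair of libraries of a cell type agreed within sampling noise (chi-square per gene between 4.30 and 11.5).

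Tags within 500 bp of every annotated 5′ end (GENCODE vM21, same strand) were summed per gene with Python 3.11.15, numpy 2.4.6 and pandas 2.3.3. Genes were compared with edgeR 4.0.16 in R 4.3.3 (quasi-likelihood test, robust fit, TMM, filterByExpr, Benjamini-Hochberg over all 14137 genes, all 6 libraries, no covariate) and relative use of start regions with diffSpliceDGE. Fold changes are mOPC over mESC. Their SE is the absolute log2 fold change divided by the square root of the quasi-likelihood F statistic. Where a cell type had few tags, as in Unc5c, Epha2 and Sema6d, this SE is smaller than the counting error. Leaving out 1 library moved the fold changes of these genes by more than the SE. Where a cell type had 0 tags the ratio is a bound from 3 tags over its pooled libraries, and with 1 to 3 tags it has a 95% exact binomial interval. Both fits were run before use on simulated counts, with 200 changes of 2 on the log2 scale each. For genes 199 of the 200 were recovered with 12 false calls among 13884 tested. For start regions 173 of the 200 were recovered with 11 false calls among 2899. In the data 12892 of 14137 genes were called, so the simulation, with few changed genes, cannot show how the scaling behaves there. Alternatives were DESeq2 1.42.0, its size factors or library totals, no filter, windows of 100 or 1000 bp, all tags inside the gene, tags of shared windows left out, a replicate block and each library left out. The members, gene lists and tests were chosen with earlier results of these data known. Values of single libraries are printed for genes whose mean reached 5 TPM in either cell type, others by mean and counts; of the further lists, the 3 genes with the largest change in each direction among those called with at least 5 TPM are named. Figures were drawn with matplotlib 3.10.9. The RNA–DNA interaction data of the study were not used here.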

Additional observations from a re-analysis of the deposited data

Results flagged for a closer look

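Tags outside the counted windows, with none or almost none in the other cell type, were found at 6 clusters with a mean of at least 5 TPM that do not lie at the start of another coding gene. In Nrp2 the mOPC mean was 39.1 TPM at chr1:62718321-62718637, and the mESC means were 8.16 at chr1:62738286-62738531 and 8.91 at chr1:62768913-62769054. In Epha10 the mOPC mean was 15.9 at chr4:124881738-124881857, 6 bp from a RefSeq start. In Sema3d the mOPC mean was 10.6 at chr5:12400545-12400769, in an intron 17141 bp from the nearest annotated 5′ end, with 0 in mESCs. In Sema6d the mOPC mean was 5.73 at chr2:124090588-124090753, in an intron 696 bp from the nearest annotated 5′ end, with 0 in mESCs. What these tags derive from was not tested.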

How the results depend on the processing

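Over all alternatives 34 to 37 guidance genes were higher in mOPCs and 22 to 29 in mESCs, 50 to 55 and 20 to 25 of the further genes, and 9 to 15 guidance genes changed their start regions; leaving out 1 library gave 34 to 36, 23 to 25, 50 to 52, 20 to 24 and 9 to 11. A replicate block gave 35, 24, 52, 23 and 10; same-numbered libraries of the cell types did not deviate together (correlations 0.00364, 0.0791 and 0.0221), so the numbers do not pair them. Signs turned for Ntn1 with all tags inside the gene (0.30), for Ntn5 with windows of 100 bp (2.74) and without mOPC replicate 2 (0.046, within -0.43 to 0.046 over single libraries left out), for Plxna1 with all tags inside the gene (0.019), for the EphA sum with windows of 1000 bp (0.052) and all tags inside the genes (0.43), and for the Robo sum with all tags inside the genes (0.11). These alternatives count other tags or fewer libraries. The log2 ratio of the neuropilin sum was -0.06 with all tags inside the genes against -7.52 at the annotated starts. Counting all tags inside a gene takes in clusters away from its annotated starts, as in Nrp2 and Epha10. It moved the fold change of 26 named genes by more than 1.5 times, among them Slit3 to -4.72, Unc5d to -4.64, Epha1 to -4.15, Sema5a to -1.25, Plxnb3 to 6.91, Dcc to 6.83, Sema3g to 2.92 and Ntn3 to 1.31 on the log2 scale. Windows of 100 bp did so for 8 genes, windows of 1000 bp for 5 and DESeq2 for Dcc. Another scaling moved the median of all genes by at most 0.09 on the log2 scale. The 7 genes without a test had too few tags in their windows for the filter on low counts.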
